A study of Mus musculus with 4 samples.

Results

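The transcripts described here come from 10 genes of the Wnt pathway in mouse small intestinal organoids: the ligand gene Wnt3, the feedback genes Axin2, Rnf43, Znrf3 and Nkd1, and the target genes Sp5, Tcf7, Ephb2, Ephb3 and Myc. They were taken by symbol, 10 of 22632 genes in the deposited expression table, and each symbol had 1 row. Organoids, epithelial cultures grown from isolated crypts in Matrigel, were harvested 24 hours after seeding, with 1 RNA-seq library in each of 4 groups. Yap-/- organoids came from Yapfl/fl;VillinCre mice and Yap+/- organoids from Yap+/fl;VillinCre mice, so Cre under the Villin promoter, which is active in intestinal epithelium, was to remove both copies or 1 copy of the gene that encodes YAP, a co-activator of transcription. Organoids called YapTg had a doxycycline-inducible transgene of wild-type Yap, with an rtTA that depends on Cre, and were grown with doxycycline, given in the labels as 1.5 mg/ml, or without it. The sources used here name neither the driver of that Cre nor the number of mice behind each library. All groups grew in medium with EGF, Noggin at 100 ng/ml and R-spondin 1 at 150 ng/ml, and the described medium names no Wnt protein. None of these libraries pairs doxycycline with organoids that lack the transgene, so the drug and the transgene cannot be told apart.

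Wnt proteins bind Frizzled receptors and LRP co-receptors and thereby spare beta-catenin from a destruction complex built on APC and Axin, after which beta-catenin joins TCF/LEF factors on DNA. In the intestinal crypt this signal maintains stem cells and Paneth cells, and Paneth cells are an epithelial source of Wnt3. Several targets of the pathway restrain it in turn: Axin2 rebuilds the destruction complex, Rnf43 and Znrf3 encode membrane ubiquitin ligases that remove Frizzled receptors, and Nkd1 binds Dishevelled. R-spondins, acting through Lgr4 and Lgr5, clear Rnf43 and Znrf3 from the membrane.

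Of the 10 genes, 8 had promoter windows in the RefSeq table (GRCm38.p6), 10 windows in all, each from 250 bases before to 50 bases after an annotated start. The windows of the 3 genes that were at least 2-fold lower with doxycycline are shown, as chr11:103773925-103774224 (plus strand) for Wnt3 (ENSMUSG00000000125), chr11:108920099-108920398 (plus strand) for Axin2 (ENSMUSG00000000142) and chr2:70474673-70474972 (plus strand) for Sp5 (ENSMUSG00000075304). Capitals mark matches, on either strand, to the TCF/LEF-type letters CTTTGAT and its variant CTTTGTT, as well as CTTTGAA and in addition CTTTGTA.
Wnt3: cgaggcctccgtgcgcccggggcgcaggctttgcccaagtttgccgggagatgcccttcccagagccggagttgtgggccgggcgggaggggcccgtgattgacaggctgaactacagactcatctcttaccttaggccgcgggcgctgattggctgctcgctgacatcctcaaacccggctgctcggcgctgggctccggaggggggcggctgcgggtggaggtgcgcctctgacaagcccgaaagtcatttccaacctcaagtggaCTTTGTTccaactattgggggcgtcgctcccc
Axin2: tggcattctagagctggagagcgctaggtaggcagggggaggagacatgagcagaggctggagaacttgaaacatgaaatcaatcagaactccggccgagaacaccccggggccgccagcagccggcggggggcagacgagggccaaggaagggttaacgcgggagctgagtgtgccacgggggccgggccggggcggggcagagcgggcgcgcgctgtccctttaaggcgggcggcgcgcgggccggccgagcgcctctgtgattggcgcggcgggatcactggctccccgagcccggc
Sp5: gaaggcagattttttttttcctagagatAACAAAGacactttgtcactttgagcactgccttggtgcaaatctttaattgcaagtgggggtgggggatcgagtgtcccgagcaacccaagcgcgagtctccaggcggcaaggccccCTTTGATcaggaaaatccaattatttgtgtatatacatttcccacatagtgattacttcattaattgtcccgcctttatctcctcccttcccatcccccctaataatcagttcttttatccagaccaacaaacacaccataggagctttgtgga
The Sp5 window held CTTTGTT on the minus strand 222 bases before the start and CTTTGAT on the plus strand 104 bases before it. The Wnt3 window held CTTTGTT on the plus strand 18 bases after the start, and the Axin2 window held none of these letters. No matches overlapped. Of the 10 windows 2 held at least 1 match, against 16.9% of all 32851 windows in the table. The TEAD-type letters GGAATG, searched on both strands, were in 0 of the 10 windows and in 14.7% of all windows. A match is a description of the letters and not a binding site.

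The libraries behind the deposited values held between 44934170 and 75269003 reads, and 86.1% to 90.6% of them fell in genes. Yap1 followed the labels, at 3.35 RPKM (reads scaled by gene length and by library size) in Yap-/- and 16.7 RPKM in Yap+/- organoids, and at 1039 RPKM with and 25.1 RPKM without doxycycline. Yap1 transcript was thus lower and not absent in the Yap-/- library, which held 1890 Yap1 reads. Epithelial markers such as Epcam, Cdh1 and Vil1 were present, with 0 of 7 at 0 in any library. With 1 library in each group, replicate spread is unknown and no p-value is given. The 95% intervals given with folds are exact binomial (Clopper-Pearson) intervals on recovered reads and cover counting error only. A gene is said to pass 2-fold when the log2 ratio of RPKM plus a pseudocount of 1 reached 2-fold and its higher library reached 1 RPKM; folds in the text are plain ratios of RPKM.

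Wnt3, the 1 Wnt ligand gene that reached 1 RPKM without induced Yap, was at 2.97 RPKM in Yap-/- organoids, beside 1.74 RPKM in Yap+/- ones. It was at 0.514 RPKM in YapTg organoids with doxycycline and 2.79 RPKM in those without. The Yap-/- and uninduced libraries were high and did not separate by counting error, Yap+/- stood between, and the induced library was lowest. Its reads numbered 619 in Yap-/- and 304 in Yap+/- organoids, and 119 with and 386 without doxycycline; over all 10 genes they ran from 36 for Nkd1 to 10722 for Myc. Wnt3 was 1.71-fold higher in Yap-/- (95% interval 1.49 to 1.97) and 5.43-fold lower with induced Yap (4.41 to 6.73).

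**Figure D1:**
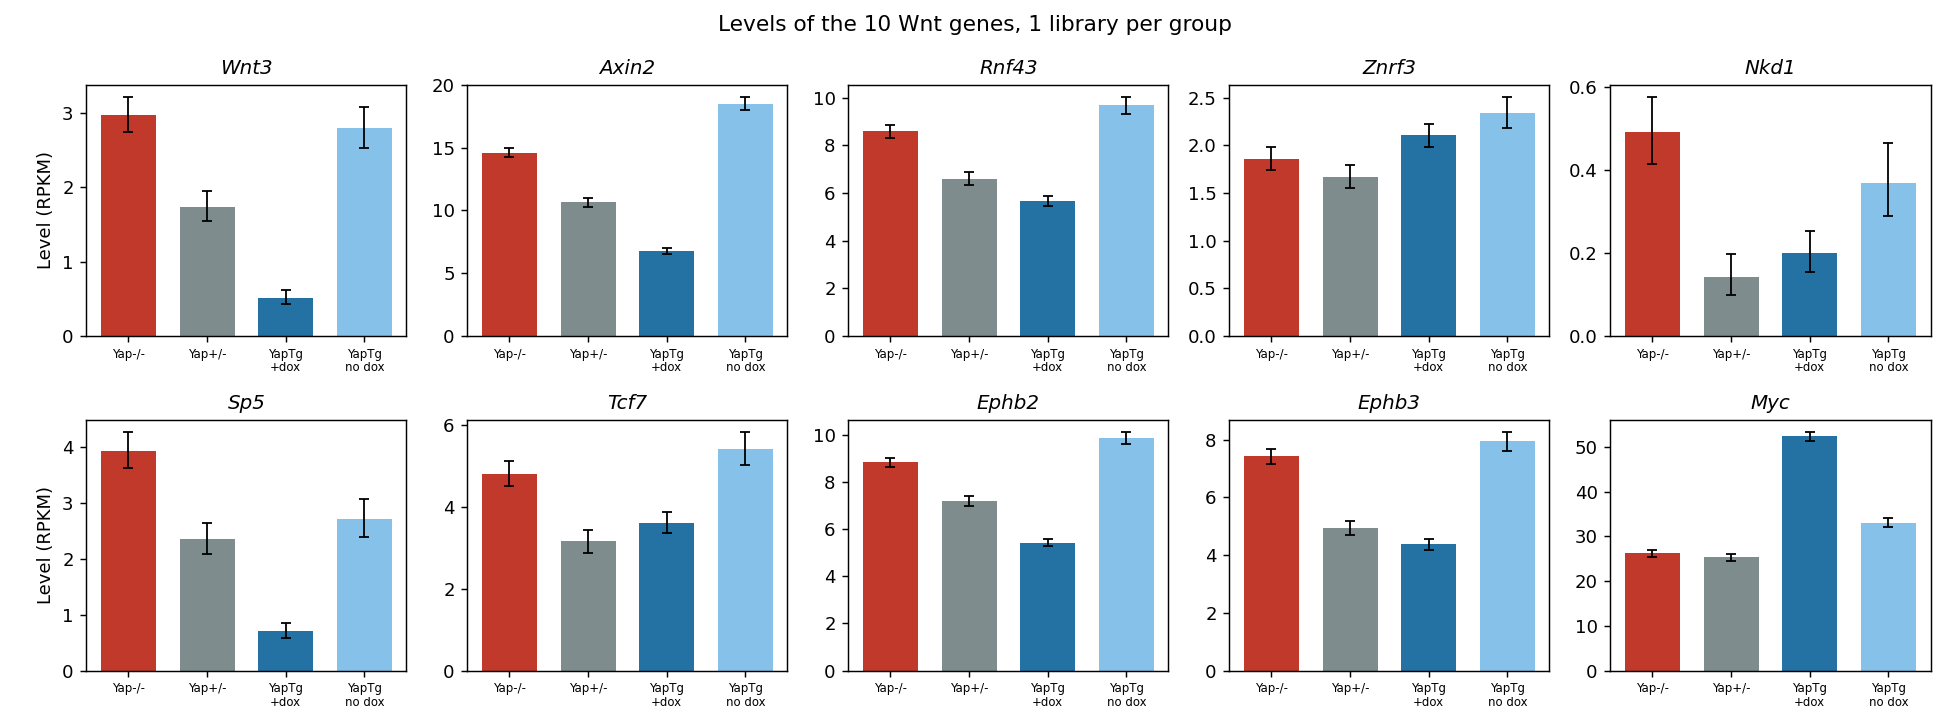
Levels in RPKM of the 10 Wnt genes, 1 panel per gene and 1 bar per library, from left to right Yap-/-, Yap+/-, YapTg with and YapTg without doxycycline; error bars are exact Poisson 95% intervals of the reads and cover counting error only. Wnt3, Axin2 and Sp5 are lowest with doxycycline, while Myc is highest there, at 52.4 RPKM.

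Axin2 was the most abundant feedback gene, at 14.6 RPKM in Yap-/- organoids, beside 10.6 RPKM in Yap+/- ones, 1.37-fold higher (95% interval 1.31 to 1.43). It was at 6.79 RPKM with and 18.5 RPKM without doxycycline, 2.73-fold lower (2.60 to 2.86). Every neighbouring pair in its order, uninduced YapTg above Yap-/-, then Yap+/-, then induced YapTg, was apart by more than counting error. In the GENCODE M21 annotation 209 bases of Axin2 exons overlap Gm11670 on the other strand, and strand handling in the counting is not stated.

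The ubiquitin ligase genes differed from each other. Rnf43 was at 8.60 RPKM in Yap-/- organoids, beside 6.60 RPKM in Yap+/- ones, and at 5.65 RPKM with and 9.68 RPKM without doxycycline. That is 1.30-fold higher in Yap-/- (95% interval 1.24 to 1.37) and 1.71-fold lower with induced Yap (1.63 to 1.81). Its close relative Znrf3 was at 1.86 RPKM in Yap-/- organoids, beside 1.67 RPKM in Yap+/- ones, and at 2.10 RPKM with and 2.34 RPKM without doxycycline. Znrf3 was 1.11-fold higher in Yap-/- (1.01 to 1.23) and 1.11-fold lower with induced Yap (1.02 to 1.22). In the induced pair its ratio was the nearest to 1 among the 10 genes. On the RPKM scale, Rnf43 exceeded Znrf3 by 4.63-fold in Yap-/-, 3.96-fold in Yap+/-, 2.69-fold in induced and 4.14-fold in uninduced YapTg organoids.

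Nkd1 stayed below 1 RPKM in every library, with 148 reads in Yap-/-, 36 in Yap+/-, 67 in induced and 74 in uninduced YapTg organoids. Its levels were 0.490 RPKM in Yap-/- organoids, beside 0.142 RPKM in Yap+/- ones, 3.46-fold higher (95% interval 2.39 to 5.12), and 0.200 RPKM with and 0.369 RPKM without doxycycline, 1.85-fold lower (1.31 to 2.61). On the plain RPKM scale its ratio in the Yap-/- pair was the furthest from 1 of the 10 genes, but it did not count toward the 2-fold rule.

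Sp5, a zinc finger factor gene directly downstream of beta-catenin, was at 3.94 RPKM in Yap-/- organoids, beside 2.35 RPKM in Yap+/- ones, 1.68-fold higher (95% interval 1.45 to 1.94). It was at 0.702 RPKM with and 2.71 RPKM without doxycycline, 3.86-fold lower (3.08 to 4.87). Yap-/- had its highest level, and the Yap+/- and uninduced libraries did not separate by counting error. Tcf7, which encodes the TCF1 factor of the pathway, was at 4.82 RPKM in Yap-/- organoids, beside 3.16 RPKM in Yap+/- ones, 1.52-fold higher (1.37 to 1.70). It was at 3.62 RPKM with and 5.42 RPKM without doxycycline, 1.50-fold lower (1.35 to 1.66), and here Yap+/- and not the induced library was lowest.

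Ephb2 and Ephb3 encode receptors for ephrin-B ligands that sort cells along the crypt axis. Ephb2 was at 8.83 RPKM in Yap-/- organoids, beside 7.19 RPKM in Yap+/- ones, and at 5.42 RPKM with and 9.87 RPKM without doxycycline. Ephb3 was at 7.42 RPKM in Yap-/- organoids, beside 4.94 RPKM in Yap+/- ones, and at 4.38 RPKM with and 7.94 RPKM without doxycycline. Both had the same order of libraries, uninduced YapTg highest and induced YapTg lowest. Their folds with induced Yap were alike, 1.82-fold lower for Ephb2 (95% interval 1.75 to 1.89) and 1.81-fold lower for Ephb3 (1.71 to 1.92). In Yap-/- organoids, Ephb3 was 1.50-fold higher (1.42 to 1.59) and Ephb2 1.23-fold higher (1.19 to 1.27), intervals that do not overlap.

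Myc, the growth-promoting transcription factor gene, stood apart from the other 9. It was at 26.2 RPKM in Yap-/- organoids, beside 25.3 RPKM in Yap+/- ones, a ratio of 1.04 whose interval of 0.992 to 1.08 includes 1. With doxycycline it was at 52.4 RPKM, against 33.0 RPKM without, 1.59-fold higher (95% interval 1.53 to 1.65). It was the 1 gene of the 10 that was higher in the induced library.

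Side by side, the Yap-/- pair showed small differences in 1 direction. None of the 10 passed 2-fold, where 0.906% of the 10710 genes at 1 RPKM or more did. All 9 genes at 1 RPKM or more were higher in Yap-/- organoids, and so was Nkd1 below it; 65.5% of all genes at that level were higher too. The counting interval lay above 1 for 8 of the 9, against 40.8% of all genes. The median log2 ratio of the 9 was 0.42, from 0.05 for Myc to 0.56 for Sp5, against a median of 0.05 over all genes. At 1.5-fold on that scale the count was 0, where 1.34% of all genes were higher.

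With doxycycline, Wnt3, Axin2 and Sp5 passed 2-fold, all lower. That is 3 of the 9 genes at 1 RPKM or more, where 5.80% of 11108 genes passed it downward, 5.85% upward and 11.6% in either direction. Of the 9, 8 were lower and 1, Myc, was higher, and 54.5% of all genes were lower and 45.5% higher. Counting intervals lay below 1 for 8 genes and above 1 for Myc, against 45.9% and 37.2% of all genes. The median log2 ratio was -0.73, against -0.04 over all genes. At 1.5-fold the count was 6 lower and 1 higher, where 13.0% and 11.4% of all genes passed.

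**Figure D2:**
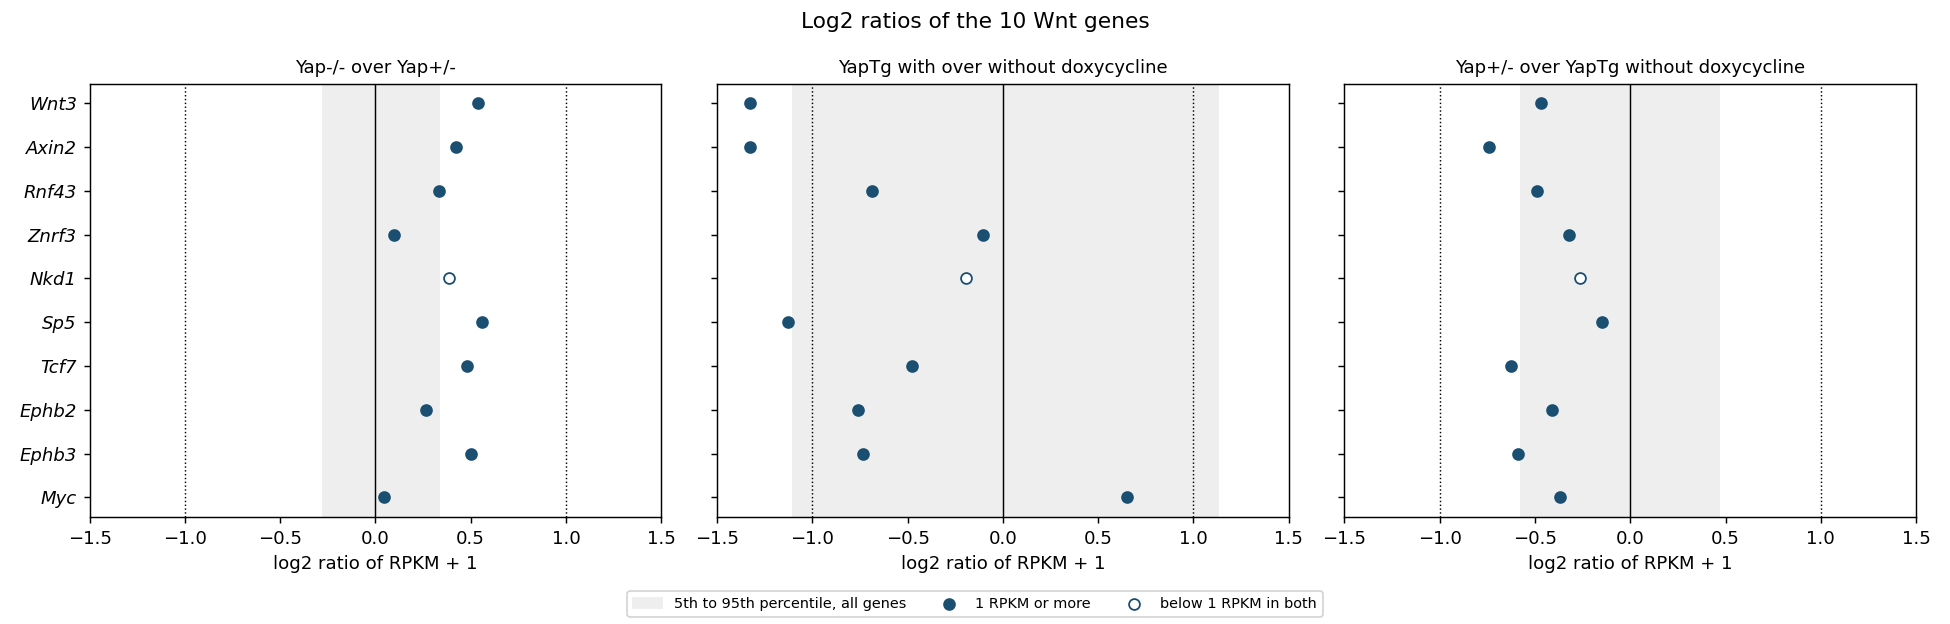
Log2 ratios of RPKM plus 1 (horizontal axis) for the 10 Wnt genes (rows) in 3 comparisons; filled points reached 1 RPKM, the open point is Nkd1, dotted lines mark 2-fold, and the grey band spans the 5th to 95th percentile of all genes. Points lie right of 0 for Yap-/- over Yap+/-, left of 0 for YapTg with over without doxycycline except Myc at 0.65, and left of 0 for Yap+/- over YapTg without doxycycline.

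The pair of libraries with neither full loss nor induction differed as well. Yap+/- was below uninduced YapTg for all 10 genes, with no gene past 2-fold, where 1.84% of 10883 genes passed. The furthest apart at 1 RPKM or more were Axin2, at 10.6 RPKM in Yap+/- and 18.5 RPKM in uninduced YapTg, 1.74-fold lower (95% interval 1.66 to 1.82), and Tcf7, 1.72-fold lower (1.53 to 1.93). Sp5 was nearest, 1.15-fold lower with an interval of 0.971 to 1.37. The median log2 ratio of the 9 genes was -0.47, against -0.11 over all genes, of which 65.6% were lower in Yap+/-. At 1.5-fold 3 genes were lower, where 4.70% of all genes were, and intervals lay below 1 for 8, where 52.9% did. After median-ratio scaling the median of all genes moved to 0.01 and that of the 9 genes to -0.37. This comparison shares the Yap+/- library with the first and the uninduced library with the other. Yap+/- had the lowest level for 4 of the 10 genes and the next lowest for 6. Yap-/- lay above uninduced YapTg for 3 genes, Wnt3, Nkd1 and Sp5, and below it for 7. With uninduced YapTg in place of Yap+/- under Yap-/-, the median log2 ratio was -0.15, against -0.08 over all genes. With Yap+/- in place of uninduced YapTg under the induced library, Wnt3 had a log2 ratio of -0.85, Axin2 -0.58 and Sp5 -0.98. On this scale of RPKM plus 1 none was past 2-fold, while Myc passed it at 1.02. In plain RPKM the 95% intervals of their folds lower were 2.72 to 4.21 for Wnt3 and 2.68 to 4.21 for Sp5. For Axin2 the interval was 1.49 to 1.65. The pseudocount of 1 shrinks differences of low genes such as Wnt3 and Sp5. These library pairs also differ in organoid line.

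The rest of the pathway was read from 10 lists of ligands, receptors, signalling parts and targets, together 121 genes besides the 10. Of these, 60 reached 1 RPKM in the Yap-/- pair, 40 higher and 20 lower, where 65.5% of all genes were higher. The 1 of them past 2-fold was the receptor gene Epha2, at 2.22 RPKM in Yap-/- against 6.49 RPKM in Yap+/- organoids. It was lower, and 0.570% of all genes passed 2-fold in that direction. With doxycycline 64 of the 121 reached 1 RPKM, of which 6 passed 2-fold upward and 9 downward, where 5.85% and 5.80% of all genes did. Median-ratio scaling left 6 upward and 6 downward, with Fzd4, Ephb4 and Mxd4 no longer past 2-fold, and upper-quartile scaling likewise took out Fzd4. The median log2 ratio of the 64 was 0.01.

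Another Wnt ligand gene was present in the induced library. Wnt7a was at 3.18 RPKM with doxycycline, from 760 reads, against 0.0140 RPKM and 2 reads without, a ratio of 227 (95% interval 62.6 to 1877). It had 2 reads in Yap-/- and 3 in Yap+/- organoids. Wnt7b had 303 reads with doxycycline and 0 without, so its ratio had only a lower 95% bound, 48.7. It stayed below 1 RPKM, as did Wnt9b, which had 13 reads with and 63 without doxycycline. Wnt7b and Wnt9b were named after their values were seen. Of the 19 ligand genes, Wnt3 and Wnt7a were the 2 that reached 1 RPKM in the YapTg pair. Genes for Wnt release were higher too: the lipid-adding enzyme gene Porcn at 2.58 RPKM with and 0.653 without doxycycline, 3.96-fold (3.16 to 5.01), and the carrier gene Wls at 22.1 RPKM with and 7.21 without it, 3.07-fold (2.96 to 3.19).

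Receptors and the signalling core held few genes past 2-fold. With doxycycline 11.6% of all genes passed 2-fold in either direction, and 5.80% passed downward. Of 8 Frizzled, LRP and related receptor genes at 1 RPKM, Fzd4 alone passed it, at 0.425 RPKM with and 1.85 without doxycycline. Its log2 ratio lay just past the threshold, and with median-ratio scaling it was -0.97. Of the 8 receptor genes, 4 were higher and 4 lower, and at 1.5-fold 2 were higher and 1, Fzd4, lower. The 2 were Ryk, at 30.6 RPKM with and 15.5 without doxycycline, and Fzd7, at 12.4 RPKM with and 7.05 without it. Both were named after their values were seen. At 1.5-fold 11.4% of all genes were higher and 13.0% lower. The R-spondin receptor gene Lgr5, itself a Wnt target and stem cell marker, was at 0.910 RPKM with and 6.15 RPKM without doxycycline, 6.76-fold lower (95% interval 6.21 to 7.36), and Lgr4 was at 17.0 RPKM with and 27.9 without it. In the Yap-/- pair Lgr5 was at 2.51 RPKM in Yap-/- and 1.90 in Yap+/- organoids, and Lgr4 at 27.1 RPKM in Yap-/- and 24.8 in Yap+/- organoids. Between Yap+/- and uninduced YapTg organoids Lgr5 was the 1 wider pathway gene of 59 at 1 RPKM that passed 2-fold. It was lower in Yap+/-, and 0.726% of the 10883 genes at that level passed 2-fold in that direction. None of the 12 destruction complex and Dishevelled genes and none of the 9 nuclear genes at 1 RPKM passed 2-fold in either pair. Over all genes 0.906% passed in the Yap-/- pair and 11.6% with doxycycline. Ctnnb1, the beta-catenin gene, was at 156 RPKM in Yap-/- organoids, beside 159 RPKM in Yap+/- ones, and at 140 RPKM with and 168 RPKM without doxycycline. Apc was at 7.40 RPKM in Yap-/- and 7.31 in Yap+/- organoids, and at 9.77 RPKM with and 8.42 without doxycycline. Tcf7l2, which encodes the main TCF factor of intestinal epithelium, was at 3.08 RPKM in Yap-/- and 3.16 in Yap+/- organoids, and at 3.68 RPKM with and 2.98 without doxycycline. Lef1 had between 1 and 6 reads per library. Among 4 secreted and surface inhibitor genes at 1 RPKM, Sfrp5 passed 2-fold, at 1.21 RPKM with and 4.09 RPKM without doxycycline. Downward, 5.80% of all genes passed.

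**Figure D3:**
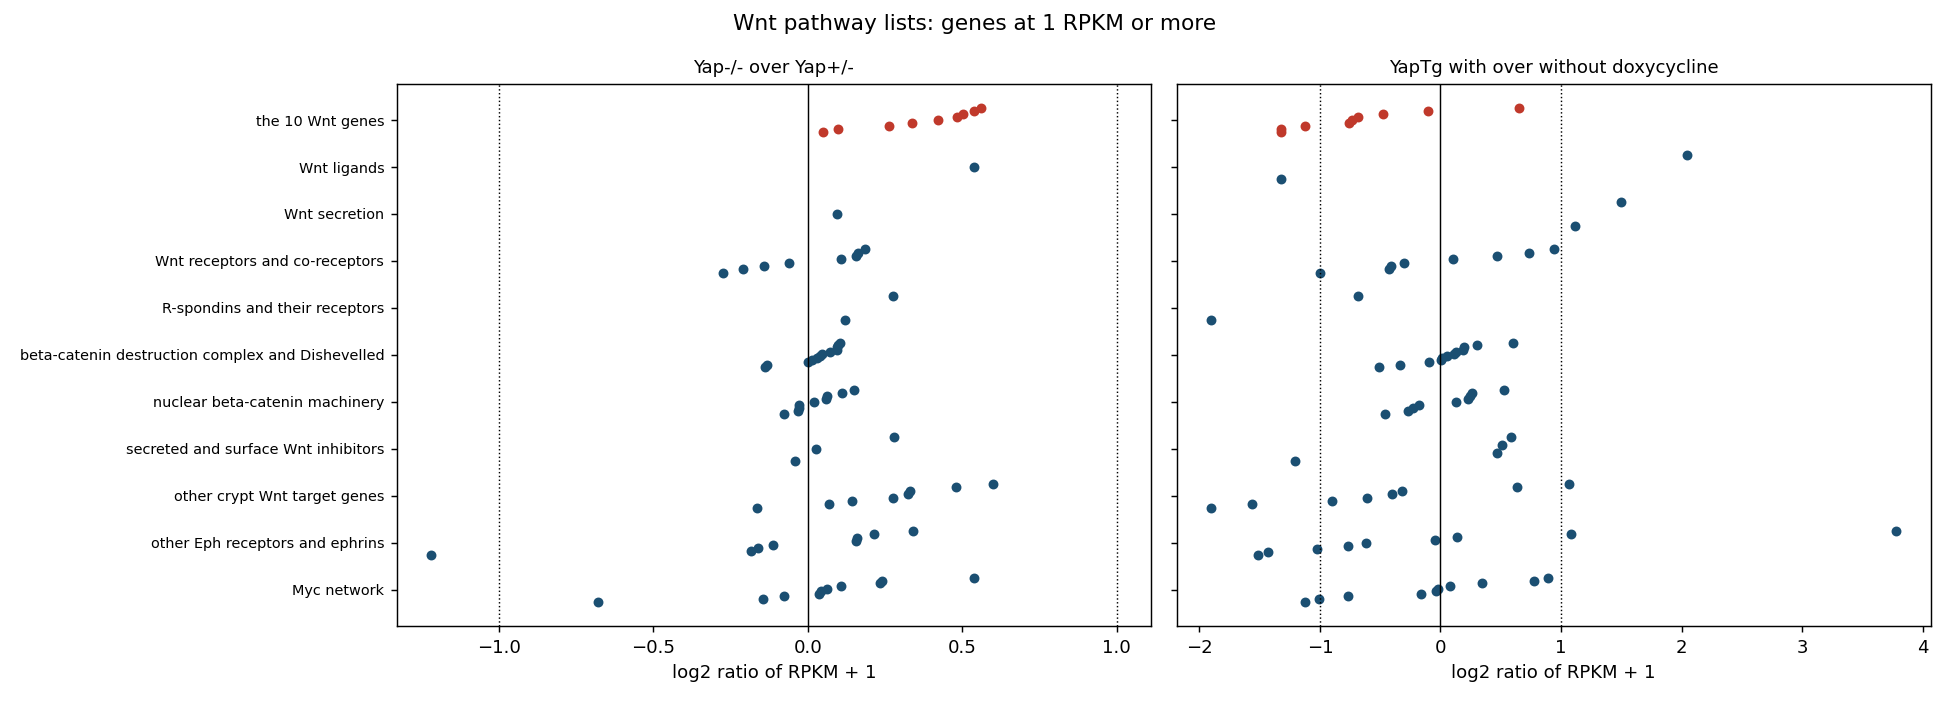
Log2 ratios of RPKM plus 1 (horizontal axis) for the 10 Wnt genes and 10 wider lists (rows), for genes at 1 RPKM or more, with Wnt3 also among the ligands; each point is a gene, spread vertically for legibility, and dotted lines mark 2-fold. In the left panel, Yap-/- over Yap+/-, Epha2 at -1.22 is the point past 2-fold; in the right panel, with over without doxycycline, Epha2 at 3.78 and Wnt7a at 2.04 lie furthest right.

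Other crypt targets of the pathway lay on both sides. Of 8 at 1 RPKM, 6 were lower and 2 higher with doxycycline, with a median log2 ratio of -0.51. Over all genes 54.5% were lower and 45.5% higher, with a median of -0.04, and 5.80% passed 2-fold downward and 5.85% upward. Lgr5 passed 2-fold lower, as did the transcription factor gene Sox4, at 4.40 RPKM with and 14.9 without doxycycline. The cyclin D1 gene Ccnd1 passed it higher, at 72.7 RPKM with and 34.2 without doxycycline. Ascl2, a stem cell factor gene, was at 3.22 RPKM with and 6.88 without doxycycline, and at 8.72 RPKM in Yap-/- and 5.97 in Yap+/- organoids. In the Yap-/- pair 7 of the 8 were higher, where 65.5% of all genes were, with a median of 0.30, against 0.05 over all genes. None was past 2-fold, where 0.906% of all genes were.

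Relatives of the Eph receptors were higher and lower, and those of Myc past 2-fold were lower. With doxycycline Epha2 was at 110 RPKM, against 7.04 RPKM without, 15.6-fold higher (95% interval 14.8 to 16.4), and Epha4 was at 2.64 RPKM with and 0.714 without it. The receptor gene Ephb4 was lower, at 12.0 RPKM with and 25.4 without doxycycline (log2 ratio -1.03), and so were the ephrin-A ligand genes Efna1, at 9.17 RPKM with and 28.1 without it, and Efna4, at 2.03 RPKM with and 7.17 without it. Efnb1, a ligand gene for Ephb2 and Ephb3 named after its values were seen, was at 20.2 RPKM with and 18.2 without doxycycline, and at 18.1 RPKM in Yap-/- and 19.7 in Yap+/- organoids. Of the 10 Myc network genes, 4 were higher and 6 lower with doxycycline, where 45.5% and 54.5% of all genes were. The relative Mycl was at 4.07 RPKM with and 10.1 RPKM without doxycycline, 2.47-fold lower (2.30 to 2.66), opposite to Myc. Mycn, a relative named after its values were seen, was higher, at 1.67 RPKM with and 0.554 without doxycycline. Its log2 ratio was 0.78, and 1.43, past 2-fold, with a pseudocount of 0.1. Mxd4, an antagonist of Myc, was at 4.85 RPKM with and 10.8 without doxycycline, a log2 ratio of -1.01.

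Markers of crypt cell types differed along with these genes, and in whole organoids fewer cells of a type and less RNA per cell cannot be told apart. Summed levels of 6 crypt base stem cell markers were 594 RPKM in Yap-/- organoids, beside 321 RPKM in Yap+/- ones, and 61.7 RPKM with and 544 RPKM without doxycycline. Most of each sum but the induced one was Olfm4, at 501 RPKM in Yap-/- and 244 in Yap+/- organoids, and at 22.0 RPKM with and 424 without doxycycline. The other 5 summed to 92.9 RPKM in Yap-/- and 77.2 in Yap+/- organoids, and to 39.7 RPKM with and 121 without doxycycline. All 6 were lower with doxycycline, 5 past 2-fold, where 5.80% of all genes were. The 7 Paneth cell markers summed to 9625 RPKM in Yap-/- organoids, beside 4855 RPKM in Yap+/- ones, and 7770 RPKM with and 11830 RPKM without doxycycline. With doxycycline all 7 were lower, 3 (Ang4, Dll4 and Cd24a) past 2-fold, against the same 5.80%. The lysozyme gene Lyz1 was 1.60-fold lower and the Notch ligand gene Dll4, at 0.538 RPKM with and 3.02 without doxycycline, 5.61-fold lower. In Yap-/- organoids all 7 Paneth markers were higher, where 65.5% of all genes were. Ang4, Itln1 and Defa24 were past 2-fold, as 0.906% of all genes were in either direction, and so was the stem cell marker Olfm4. Neither Defa24 nor Olfm4 was past it under either other scaling. Enterocyte markers, 6 genes, summed to 10050 RPKM in Yap-/- organoids, beside 7130 RPKM in Yap+/- ones, and 1233 RPKM with and 4224 RPKM without doxycycline. In the Yap-/- pair 4 of the 6 were higher, near the 65.5% of all genes that were. Chief among them was Fabp1 at 5766 RPKM in Yap-/- and 3457 in Yap+/- organoids, while Alpi and Apoa1 were lower. With doxycycline Fabp1, Sis, Apoa4 and Fabp2 were past 2-fold lower, where 5.80% of all genes were. Alpi was at 349 RPKM with and 370 without doxycycline, and Apoa1 at 449 RPKM with and 471 without it. The 7 general epithelial markers summed to 2329 RPKM in Yap-/- and 2747 in Yap+/- organoids, and to 6076 RPKM with and 2381 without doxycycline. The keratin genes Krt8, Krt18 and Krt19 were past 2-fold higher with doxycycline, where 5.85% of all genes were. Stem and Paneth lists share Lgr5, Ascl2 and Mmp7 with the target list. Their part in the levels of the 10 genes was not tested.

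**Figure D4:**
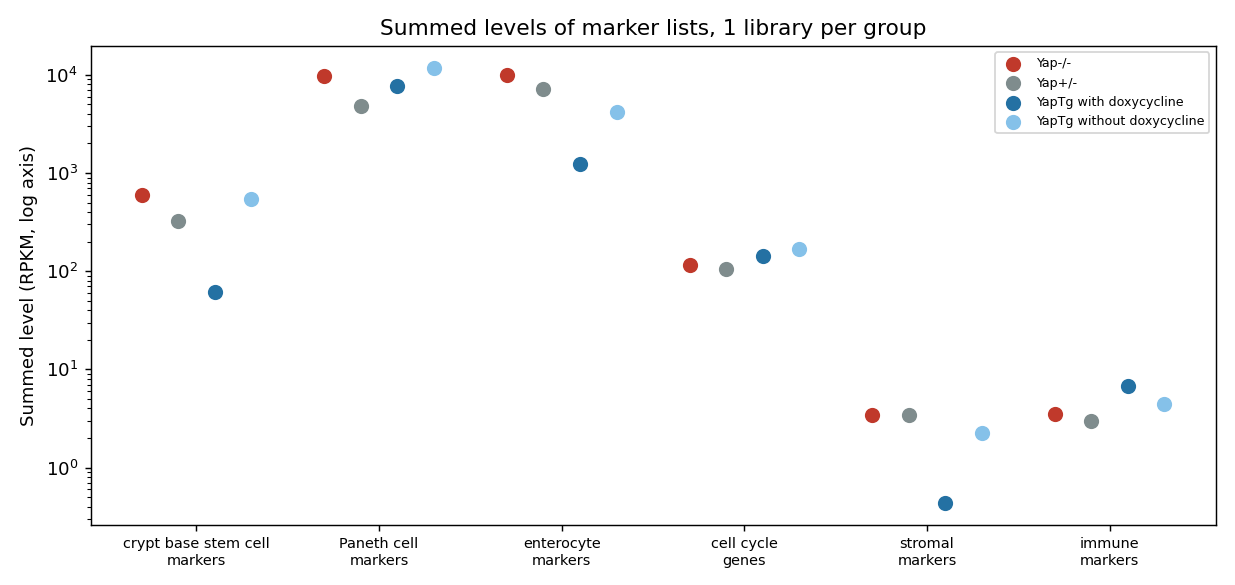
Summed RPKM (log axis) of the marker lists named below the axis, 1 point per library, in the order Yap-/-, Yap+/-, YapTg with and YapTg without doxycycline. Stem cell markers are lowest with doxycycline, at 61.7 RPKM, and Paneth cell markers are lowest in Yap+/- organoids, at 4855 RPKM.

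Cell cycle genes, 6 in all, summed to 116 RPKM in Yap-/- organoids, beside 106 RPKM in Yap+/- ones. They summed to 142 RPKM with and 167 RPKM without doxycycline. None was past 2-fold, where 0.906% of all genes were in the Yap-/- pair and 11.6% with doxycycline. Markers of cells outside the epithelium were low. The 6 stromal markers in the table summed to 0.435 to 3.46 RPKM per library, nearly all from Vim, which was at 3.46 RPKM in Yap-/- and 3.39 in Yap+/- organoids and, past 2-fold lower, at 0.381 RPKM with and 2.26 without doxycycline. In each library 2 to 4 of the 6 were at 0, always among them the fibroblast collagen gene Col3a1. The 5 immune markers summed to 2.96 to 6.85 RPKM, most of it from Cd52, which was at 5.76 RPKM with and 2.79 without doxycycline, and none was at 0.

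The genes nearest in profile to 3 members were found by Euclidean distance between log2(RPKM + 1) values over the 4 libraries, each gene centred on its mean, among 7169 genes with a mean of 5 RPKM. Nearest to Axin2 were Noxo1, Serinc3 and Rab15, at distances of 0.0875, 0.0959 and 0.122. Noxo1, which encodes an organiser of the Nox1 oxidase, was at 13.2 RPKM in Yap-/- and 10.5 in Yap+/- organoids and at 6.46 RPKM with and 17.3 without doxycycline. Nearest to Wnt3 were Ppp1r1b, Pon3 and Mycl, at 0.138, 0.148 and 0.157. Wnt3 itself, at most 2.97 RPKM, lay below the mean of 5 RPKM, so the added 1 shrank its differences more than theirs. Ppp1r1b was at 41.0 RPKM with and 113 without doxycycline, a smaller plain fold than that of Wnt3, at 0.514 with and 2.79 without it. Nearest to Myc were Trim33, Nmt2 and Ctu2, at 0.0488, 0.0522 and 0.0530. With 4 libraries many genes share a profile, so these distances are descriptions.

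Of the 10 genes, 5 lie on chromosome 11 (Wnt3, Axin2, Rnf43, Znrf3 and Tcf7), which holds 7.68% of the table's genes with a known chromosome. Genes of chromosome 11 at 1 RPKM had a median log2 ratio of 0.04 in the Yap-/- pair and of -0.04 with doxycycline, beside 0.05 and -0.04 over all genes.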

How the data were processed

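RNA-seq libraries were made from 4 organoid cultures, 1 per group, with total RNA taken on columns and a TruSeq kit, per the labels. The submitters' processing notes name CASAVA 1.8, FastQC, TopHat 1.4.1 and mm9. Which counter, annotation, strand setting and filters were used is not stated there. Headers give no unit. The deposited values behave as RPKM, since reads came out whole when values were multiplied by gene length and library total. Library totals were solved from low values and GENCODE M21 (GRCm38) gene lengths. A gene length that makes reads whole (within 0.002) in all libraries above 0 was found for 17378 of 17378 genes above 0. A wide range of lengths was searched, so a fit for genes seen in few libraries says little about the unit. The length taken equalled the annotated one for 6738 genes. Reads of the 10 genes rest on these found lengths, of which the one nearest the annotated length was taken.

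Deposited RPKM values were taken unchanged, and log2 ratios took a pseudocount of 1, which understates differences of low genes. No test was made, because each group had 1 library. The fixed design allowed for counts or RPKM, and the latter applied. Members, lists and comparisons were chosen with earlier results of these data known. The rule for named genes covers all 10 genes, wider pathway genes past 2-fold (the 4 furthest where a list has over 5), Ctnnb1, Apc, Lgr4, Lgr5, Ascl2, Tcf7l2 and Lef1, and gives marker lists as counts and sums; marker genes named were chosen after their values were seen. Of symbols with 2 rows (Sox4, Efna5) the first was taken, Amer1, Mycl and Defa24 were also sought under older symbols, and Foxl1 had no row. Scripts ran under Python 3.11.15 with scipy 1.17.1 and were tested on simulated data.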

Additional observations from a re-analysis of the deposited data

How the results depend on the processing

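No gene among the 10 changed direction under median-ratio or upper-quartile scaling, in any of the 3 comparisons. Pseudocounts of 0.1 or 5 could not change direction, since the same value is added to both libraries. Myc in the Yap-/- pair was close to no difference, with a log2 ratio of 0.003 under median-ratio and 0.007 under upper-quartile scaling. In the YapTg pair the 3 genes past 2-fold numbered 0 with a pseudocount of 5, 1 with a floor of 5 RPKM, 7 at 1.5-fold, 0 at 4-fold and 9 by a counting interval that excludes 1. With Yap+/- as the denominator, tried after seeing the data, 1 gene passed on RPKM plus 1, Myc. The median there was -0.19, against 0.11 over all genes. In plain RPKM Wnt3 and Sp5 were also past 2-fold, both lower. The median of -0.73 was -0.84 with a pseudocount of 0.1 and -0.46 with 5. In the Yap-/- pair the interval rule gave 8 genes and all fold rules, run on RPKM plus a pseudocount, gave 0. In plain RPKM, Wnt3 (1.71-fold), Sp5 (1.68-fold), Tcf7 (1.52-fold) and Ephb3 (1.50-fold) reached 1.5-fold, as did Nkd1 below 1 RPKM. The median of 0.42 was 0.24 with a pseudocount of 5 and 0.34 with a floor of 5 RPKM. With uninduced YapTg as the denominator, also tried after seeing the data, it was -0.15, against -0.08 over all genes. For Yap+/- over uninduced YapTg 3 genes passed at 1.5-fold and 8 by the interval rule, and the median of -0.47 was -0.33 with a pseudocount of 5 and -0.37 with median-ratio scaling.

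Of the 121 wider pathway genes, the 15 past 2-fold with doxycycline were 4 with a pseudocount of 5, 28 at 1.5-fold, 2 at 4-fold and 59 by the interval rule. These counts come from the 64 genes at 1 RPKM. At 1.5-fold 13 were higher and 15 lower, where 11.4% and 13.0% of all genes were. By the interval rule 31 were higher and 28 lower, where 37.2% and 45.9% of all genes were. In the Yap-/- pair the 1 gene past 2-fold became 0 with a pseudocount of 5, 3 at 1.5-fold, 0 at 4-fold, 45 by the interval rule and 2 with uninduced YapTg as the denominator. For Yap+/- over uninduced YapTg, 1 gene became 0, 5, 0 and 51 under the first 4 of these. The 45 were among 60 genes at 1 RPKM, 30 above 1, where 40.8% of all genes were, and 15 below. The 51 were among 59 genes at 1 RPKM, 39 below 1, where 52.9% of all genes were, and 12 above. At 1.5-fold 1 of the 3 was higher, where 1.34% of all genes were, and 4 of the 5 lower, where 4.70% were. A larger pseudocount shrinks ratios of low genes by construction, and the cause of the other moves was not tested.

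Leaving out a library was not possible with 1 per group. No paired analysis was possible because each group has 1 library and no test was made. Nkd1, with 36 to 148 reads, is the gene most limited by depth.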
